A study of Mus musculus with 25 samples.

Results

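The 25 BXD mouse strains sampled here fell into 2 levels of Cyp51, the gene of lanosterol demethylase, on chromosome 5. A strain was placed in the Cyp51-high class when its Cyp51 value was at or above a split value, set in the wide gap between 2617 and 3093, and otherwise in the Cyp51-low class. All 25 strains of the series were used, 12 in the Cyp51-high class and 13 in the Cyp51-low class. The classes were set from the measured Cyp51 value itself, so the Cyp51 difference is a description and was not tested.

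RNA was sequenced from dorsal root ganglia, which hold the cell bodies of sensory neurons together with satellite glia and Schwann cells. BXD strains are recombinant inbred lines that descend from a cross of the C57BL6/J and DBA2/J inbred strains, and each line carries a fixed mosaic of both parental genomes. All animals were 8 weeks old, no treatment is given in the labels, and the classes share tissue, age and parental strains. The Cyp51-high class comprised 7 strains whose names end in TyJ and 5 that end in RwwJ, and the Cyp51-low class 9 TyJ and 4 RwwJ strains. Each strain had 1 library, so strain, animal and library cannot be told apart, and p-values for genes rest on the spread between strains within a class. Strain genotypes were not used here.

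Cholesterol is made from acetyl-CoA through the mevalonate pathway, which ends in squalene, and squalene is then closed to lanosterol and trimmed in a series of steps. Cyp51 is the cytochrome P450 that removes a methyl group from lanosterol. The genes of the pathway are known as shared targets of the transcription factor SREBP2. SREBP2 leaves the endoplasmic reticulum with its escort protein when sterols there are low. In nerve tissue much of the cholesterol goes into myelin and neuronal membranes.

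The promoter of Cyp51 is shown with those of Mvk, the pathway gene with the lowest p between the classes, and Sc5d, a later enzyme of the pathway that also lay at 2 levels in these strains. The sequences are RefSeq windows of build GRCm38.p6, from 250 bases before to 50 bases after the start, printed 5′ to 3′ on the gene's strand. They are chr5:4104648-4104947 on the minus strand for Cyp51, chr5:114444019-114444318 on the plus strand for Mvk and chr9:42264251-42264550 on the minus strand for Sc5d. Capitals mark matches on either strand to CCAAT, to GGGCGG (a GC box) or to ATCACCTCAG.
Cyp51: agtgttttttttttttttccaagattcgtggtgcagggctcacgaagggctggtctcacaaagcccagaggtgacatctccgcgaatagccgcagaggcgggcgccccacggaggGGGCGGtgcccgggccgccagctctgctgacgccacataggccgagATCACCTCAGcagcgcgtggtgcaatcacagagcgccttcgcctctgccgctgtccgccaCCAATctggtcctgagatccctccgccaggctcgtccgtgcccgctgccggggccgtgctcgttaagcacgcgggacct
Mvk: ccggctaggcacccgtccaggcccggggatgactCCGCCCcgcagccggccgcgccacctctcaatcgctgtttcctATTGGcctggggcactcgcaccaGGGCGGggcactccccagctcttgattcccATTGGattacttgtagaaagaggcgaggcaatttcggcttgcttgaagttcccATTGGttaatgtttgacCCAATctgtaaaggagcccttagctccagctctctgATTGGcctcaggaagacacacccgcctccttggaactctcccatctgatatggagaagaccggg
Sc5d: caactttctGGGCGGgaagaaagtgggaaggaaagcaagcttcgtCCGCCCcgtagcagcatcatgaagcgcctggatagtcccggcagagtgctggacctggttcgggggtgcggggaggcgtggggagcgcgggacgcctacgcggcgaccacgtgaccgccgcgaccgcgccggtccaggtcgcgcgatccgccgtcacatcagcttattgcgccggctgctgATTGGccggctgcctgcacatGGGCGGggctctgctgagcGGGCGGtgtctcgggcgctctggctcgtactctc
The Cyp51 window held 1 CCAAT match, which began 29 bases before the start, and 1 GC box, 135 bases before it. The Mvk window held 5 CCAAT matches and 2 GC boxes, and the Sc5d window 1 CCAAT match and 4 GC boxes. Among 32851 promoter windows of the same length, 37.4% held CCAAT and 35.7% held GGGCGG. None of the 3 windows held TCACNCCAC, a core of the sterol regulatory element, which 1.24% of all windows held. The 10 letters ATCACCTCAG, searched after the Cyp51 sequence had been read, began 89 bases before the Cyp51 start and were in 16 of the 32851 windows (0.0487%). No marked matches overlapped. These are matches of letters in the reference sequence and were not read from any strain.

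Values are scaled counts, the deposited read counts brought by the authors to a common scale and rounded. In the Cyp51-high class, Cyp51 (ENSMUSG00000001467) had 3093 scaled counts in BXD14, 3128 in BXD40, 3179 in BXD15, 3313 in BXD34, 3439 in BXD13, 3606 in BXD77, 3626 in BXD44, 3631 in BXD73, 3652 in BXD28, 3705 in BXD55, 3832 in BXD87 and 4097 in BXD21. In the Cyp51-low class it had 2111 in BXD5, 2195 in BXD6, 2249 in BXD11, 2277 in BXD89, 2353 in BXD42, 2458 in BXD1, 2471 in BXD2, 2506 in BXD60, 2565 in BXD68, 2574 in BXD9, 2595 in BXD16, 2610 in BXD36 and 2617 in BXD48. The split falls in an empty interval: BXD14 just inside the high class and BXD48 just outside it were 476 scaled counts apart, and no strain lay between them.

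The Cyp51-high strains averaged 3525 ± 304 scaled counts and the Cyp51-low strains 2429 ± 173 (SD, n = 12 and n = 13). The ratio of these means was 1.45, and the difference on the log2 scale was 0.54. Within a class the values were close together, with a coefficient of variation of 8.61% in the high and 7.14% in the low strains. Other genes differed more in size, 373 of the 16151 tested having a larger absolute log2 difference, but their values within a class were wider. As a measure of separation, the log2 difference was divided by the sum of the SDs of both classes. It was 2.33 for Cyp51, and no other gene had a larger value, which the choice of Cyp51 for the split makes a description only.

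**Figure D1:**
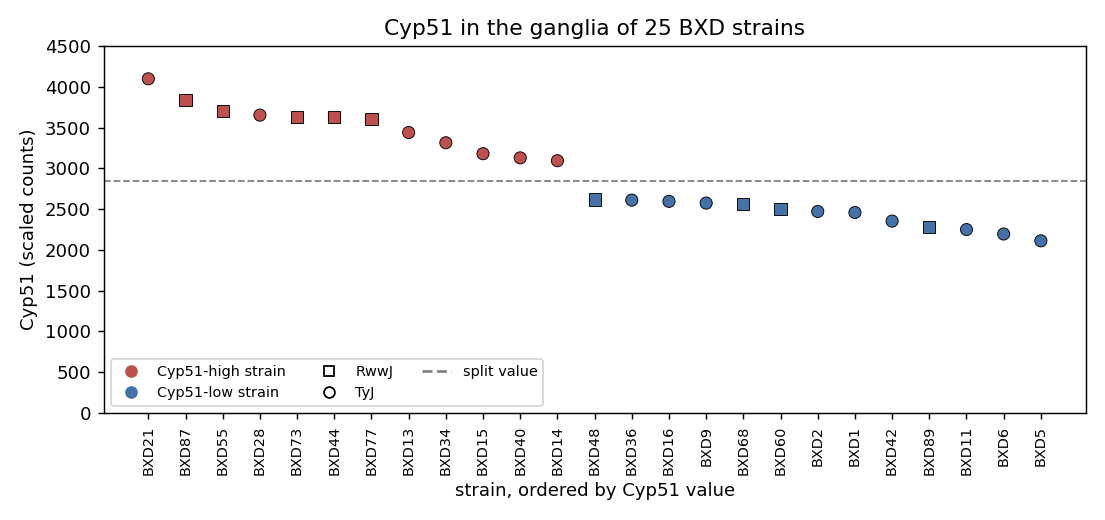
Cyp51 in scaled counts (vertical axis, from 0) in each of the 25 strains, ordered by value, with Cyp51-high strains in red and Cyp51-low strains in blue, RwwJ strains as squares and TyJ strains as circles. The dashed line is the split value, which lies in the empty interval between BXD14 (3093) and BXD48 (2617).

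Both classes occurred under both strain-name endings. Among RwwJ strains, Cyp51 averaged 3680 ± 92.9 scaled counts in the 5 high and 2491 ± 150 in the 4 low strains (SD). Among TyJ strains it averaged 3414 ± 359 in the 7 high and 2402 ± 184 in the 9 low strains (SD). The high class held 55.6% of the RwwJ strains and 43.8% of the TyJ strains, a difference that Fisher's exact test (two-sided) did not call (p = 0.688).

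Estimated sequencing depth did not separate the classes. The scaled counts of a library summed to 24637919 to 26611472 in the Cyp51-high and to 24749362 to 26860283 in the Cyp51-low libraries. These sums follow the scaling to a common level and do not measure depth. Reads estimated from the step between low values ran from 20620000 to 40150000 (median 22960000) in high and from 20030000 to 33820000 (median 22670000) in low libraries, and the step was clear in 10 of 12 and 10 of 13 of them. Apart from the overlapping Akap9, 0 genes had a transcript that matched Cyp51 at 90% identity over at least 100 bases, and the highest identity over such a length was 89.2%.

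Across the genome, 0 of the 16151 other genes with a mean of at least 10 scaled counts differed between the classes at an adjusted p under 0.05 (0.0%), by limma on log2(value + 1) with Benjamini-Hochberg adjustment. The lowest adjusted p was 0.999. The unadjusted p was under 0.05 for 645 genes (3.99%), 364 higher (2.25%) and 281 lower (1.74%) in the Cyp51-high strains. In no gene did the classes have ranges that do not overlap (0.0%). The 95% interval lay within the size of the Cyp51 difference, 0.54 in either direction, for 13210 genes (81.8%). The median half-width of these unadjusted intervals was 0.20 on the log2 scale. Unadjusted p-values below are given to order the genes, and none is a call.

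The neighbours of Cyp51 did not share its difference. Of 48 tested genes around it, 8 towards the chromosome start and 40 on the other side, 0 were called and 19 were higher and 29 lower in the Cyp51-high strains. Their median log2 difference was -0.02, and that of all genes tested was -0.00069. Their differences ran from -0.57 to 0.20. The upper end of the 95% interval lay below the Cyp51 difference of 0.54 for 46 of the 48, and for 18 of the 18 closest among them. Of all 16151 genes tested, 14539 had such an interval. The whole interval lay within 0.54 in either direction for 41 of the 48, against 13210 of all genes (81.8%). Gene order is that of a later annotation than the build of the files.

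Akap9, a scaffold protein that anchors protein kinase A at the Golgi and centrosome, is the nearest gene on the side of the chromosome start. Its annotated span overlaps that of Cyp51 by 166 bases at the end of both genes, and with a kit that does not mark strand, reads from that stretch cannot be assigned to one of them. Akap9 had a lowest, median and highest value of 972, 1783 and 2089 scaled counts in Cyp51-high strains, against 1071, 1725 and 1919 in Cyp51-low strains. The classes overlapped almost wholly, and the log2 difference was -0.06 ± 0.11 (SE; 95% interval -0.29 to 0.18, p = 0.635). The lowest values were in BXD40 (972), BXD21 (1009) and BXD36 (1071). Without these 3 strains the difference was 0.033, again near 0.

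On the same side lie Krit1, a regulator of endothelial junctions, and Gatad1, a zinc finger protein of chromatin complexes. Krit1 had 848, 980 and 1129 scaled counts (lowest, median and highest) in Cyp51-high and 879, 970 and 1165 in Cyp51-low strains. Gatad1 had 1733, 1897 and 2106 in Cyp51-high and 1651, 1831 and 1957 in Cyp51-low strains. Their log2 differences were -0.0090 and 0.05, and both had ranges that overlapped over most of their length. The other genes described towards the chromosome start, the kinase Cdk6, Fam133b, Rbm48, Ankib1 and Mterf1a, had differences from -0.04 to 0.15. Mterf1a (0.15) and its near-identical copy Mterf1b (0.06), mitochondrial transcription termination factors on either side of Cyp51, are uncertain because reads may be split between them.

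On the other side, the Wnt receptor gene Fzd1 (-0.03), the kinase gene Cdk14 (0.04), Gtpbp10 (0.06) and Cfap69 (0.06) had log2 differences near 0. Gm8773 had 0.20, and the metalloreductase genes Steap2 and Steap1 had -0.15 and -0.14. Zfp804b, a gene of few reads, had -0.53. Cldn12, a claudin of tight junctions, had 545, 623 and 775 scaled counts in Cyp51-high strains, against 605, 708 and 919 in Cyp51-low strains. Its difference was -0.16 (p = 0.0189), so it lay in the opposite direction to Cyp51.

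Counted at an unadjusted p under 0.05, 5 of the 48 neighbours (10.4%) passed, against 3.99% of all genes, and all 5 were lower in the Cyp51-high strains. They were Cldn12, Grm3, Cacna2d1, Gnai1 and Ptpn12, and all but Cldn12 were chosen after their values were seen. Cacna2d1, the calcium channel subunit that binds gabapentin in sensory neurons, had 3554, 4425.5 and 5155 scaled counts in Cyp51-high strains, against 4149, 4884 and 6130 in Cyp51-low strains. The means were 4303 ± 488 and 4999 ± 560 (SD, n = 12 and n = 13), and 11 of the 12 high strains lay below the mean of the low strains. The log2 difference was -0.22 ± 0.06 (SE; 95% interval -0.35 to -0.09, p = 0.00219), and it was -0.21 in TyJ and -0.22 in RwwJ strains. The metabotropic glutamate receptor gene Grm3 had -0.57 (p = 0.0298), the inhibitory G protein gene Gnai1 -0.14 (p = 0.00908) and the phosphatase gene Ptpn12 -0.09 (p = 0.0407). Grm3 is a gene of few reads, with 11, 24.5 and 37 scaled counts in Cyp51-high and 15, 31 and 143 in Cyp51-low strains. The count of neighbours was 2 with tissue scores as covariates, 9 with weighted libraries, 2 in RwwJ strains alone and 3 without BXD21, BXD36 and BXD40.

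**Figure D2:**
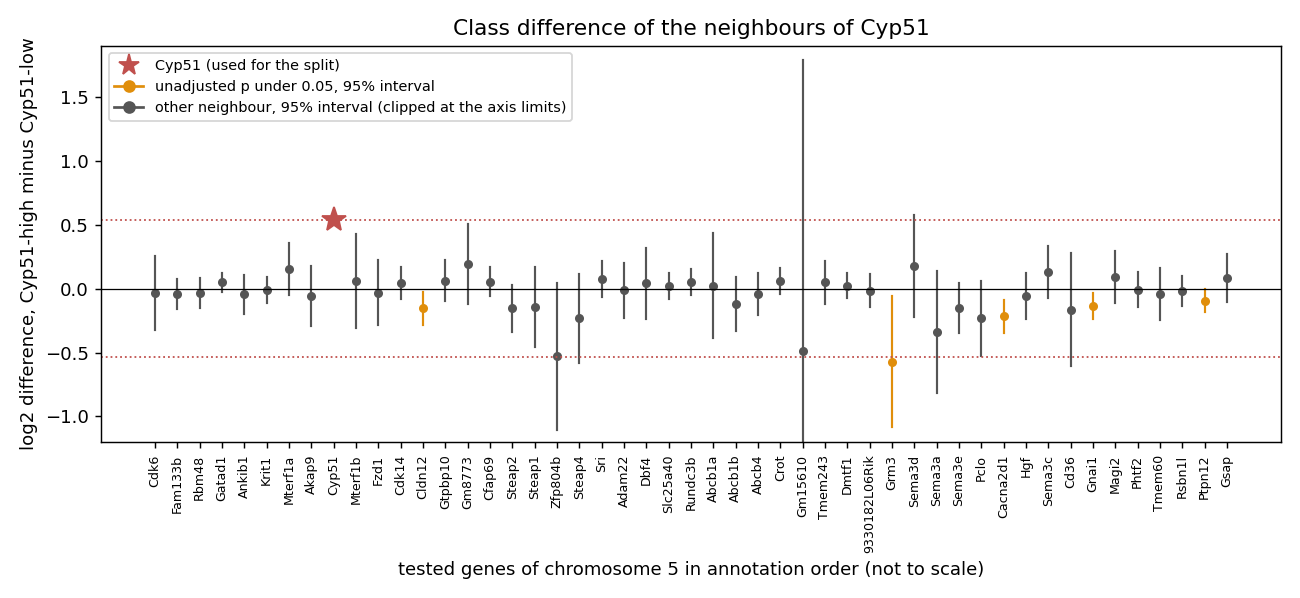
Log2 difference, Cyp51-high minus Cyp51-low (vertical axis), of 48 tested neighbours of Cyp51 in gene order along chromosome 5 (horizontal axis, not to scale), with 95% intervals clipped at the axis limits, and Cyp51 as a star. The neighbours scatter around 0, the 5 in orange (unadjusted p under 0.05) lie below it, and Cyp51 at 0.54 stands above all of them (dotted lines at its difference in either direction).

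Chromosome 5 as a whole was close to the rest of the genome. Of its 968 tested genes, 43 (4.44%) had an unadjusted p under 0.05, 27 higher and 16 lower in Cyp51-high strains, and on the other chromosomes 602 of 15183 did (3.96%). By this share it was the 6th of 20 chromosomes, in a range from 2.29% on chromosome 17 to 5.89% on chromosome 3. When each chromosome was divided in gene order into 10 bins, the bin with Cyp51, from Cdk6 to Insig1, held 10 of 97 genes (10.3%). That bin ranked 7th of 200, and the other chromosome 5 bins held 2.06% to 7.22%. Apart from Cacna2d1 and Mvk, the lowest p-values on chromosome 5 were those of Zfp11 (-0.37, p = 0.00194), Armc10 (0.19, p = 0.00367) and the muscle-associated myosin gene Myo18b (-1.28, p = 0.00479). Myo18b is a gene of few reads, with 1, 13.5 and 23 scaled counts in Cyp51-high and 7, 24 and 153 in Cyp51-low strains. Its highest values were 153 in BXD16 and 115 in BXD60. Armc10, a mitochondrial protein gene, had 519, 579.5 and 764 scaled counts in Cyp51-high and 451, 522 and 594 in Cyp51-low strains. Each of the 12 high strains lay above the low mean, yet the ranges overlapped, and the difference was 0.30 in TyJ and 0.012 in RwwJ strains.

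**Figure D3:**
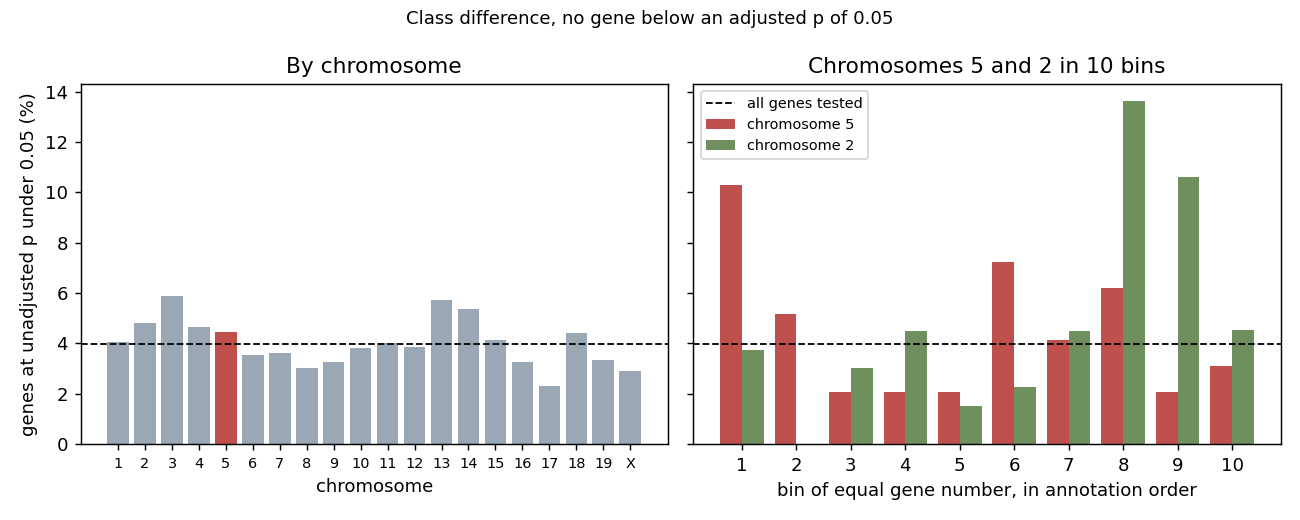
Percent of tested genes with an unadjusted p under 0.05 between Cyp51-high and Cyp51-low strains, by chromosome (left panel) and in 10 bins of equal gene number in gene order for chromosomes 5 and 2 (right panel), with the share of all genes tested (3.99%) as a dashed line. Chromosome 5 stands near that line with its 1st bin at 10.3%, and bin 8 of chromosome 2 stands highest at 13.6%.

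The other genes of cholesterol synthesis were not called, and most lay slightly higher in the Cyp51-high strains. Of 19 genes listed for the pathway 18 were in the table, and Hmgcs1 was not analysed here. Besides Cyp51, 17 were tested: 0 passed the adjusted test, 15 were higher and 2, Lbr and Ebp, lower, with Ebp on the other side of 0 after rescaling (0.00053). Of all 16151 genes tested, 8027 were higher. The median log2 difference of the 17 was 0.07, against -0.00069 for all genes tested. The median of the 17 was 0.024 without BXD21, BXD36 and BXD40, with 13 higher and 4 lower. With tissue scores as covariates it was 0.13, with 16 higher and 1 lower. An unadjusted p under 0.05 was found for 4 of the 17 (23.5%), all higher, where 2.25% of all genes were. The largest of the 17 differences was 0.25. The 95% interval of each of the 17 ended below 0.54, where that of 14539 of all 16151 genes tested did.

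In the steps before squalene, Mvk and Idi1 were 2 of 7 tested genes at an unadjusted p under 0.05. Mvk, mevalonate kinase, lies on chromosome 5 far from Cyp51. It had 1418, 1626.5 and 2220 scaled counts in Cyp51-high strains, against 1216, 1464 and 1704 in Cyp51-low strains, with means of 1704 ± 254 and 1458 ± 139 (SD, n = 12 and n = 13). The ranges overlapped, with 10 of the 12 high strains above the low mean, 5 above every low strain, and the highest value in BXD40. The log2 difference was 0.22 ± 0.07 (SE; 95% interval 0.08 to 0.36, p = 0.0036), and it was 0.33 in TyJ and 0.032 in RwwJ strains.

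Idi1, which interconverts the isoprene units, had 486, 560 and 818 scaled counts in Cyp51-high strains, against 449, 522 and 569 in Cyp51-low strains. Its highest value was in BXD21, which also had the highest Cyp51 value. The difference was 0.16 (p = 0.0194), and without BXD21, BXD36 and BXD40 it was 0.090. The thiolase gene Acat2 (0.08), Pmvk (0.07), Mvd (0.08), the prenyl synthase gene Fdps (0.0082) and the squalene synthase gene Fdft1 (0.05) were closer to 0.

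From squalene to cholesterol, 2 of 10 tested genes had an unadjusted p under 0.05. Tm7sf2, the sterol reductase that acts on the product of Cyp51, had 1486, 1706.5 and 2592 scaled counts in Cyp51-high and 1181, 1624 and 1991 in Cyp51-low strains. The means were 1878 ± 352 and 1570 ± 243 (SD, n = 12 and n = 13), with 11 of the 12 high strains above the low mean. The log2 difference was 0.25 ± 0.09 (SE; p = 0.0115), and it was 0.36 in TyJ and 0.077 in RwwJ strains. Lbr, the lamin B receptor, which carries the same reductase activity, had -0.04.

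Msmo1, the next demethylating oxidase, had 4841, 5671.5 and 7850 scaled counts in Cyp51-high and 4550, 5008 and 7605 in Cyp51-low strains (difference 0.18, p = 0.0425). The ranges overlapped over most of their length, and 2 high strains lay above every low strain. The epoxidase gene Sqle had 0.10 (p = 0.128), the last reductase gene Dhcr7 0.10 and Hsd17b7 0.07. The cyclase gene Lss (0.03), Nsdhl (0.02) and the isomerase gene Ebp (-0.00015) were at or near 0.

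Sc5d, the desaturase late in the pathway, had 1933, 2150 and 3149 scaled counts in Cyp51-high and 1765, 2083 and 2948 in Cyp51-low strains, a difference of 0.03 (95% interval -0.18 to 0.25, p = 0.756). It lay at 2177 or less in 14 strains and at 2539 or more in 11. Of the Cyp51-high strains 5 were at the upper and 7 at the lower Sc5d level, and of the Cyp51-low strains 6 were at the upper and 7 at the lower level. The levels of the 2 enzymes thus occurred in all 4 combinations.

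Of the proteins that pass electrons to the sterol enzymes or hold them together, 0 of 6 were at an unadjusted p under 0.05. Por, the reductase that passes electrons to microsomal P450 enzymes and is also on chromosome 5, had 0.0044. The cytochrome b5 genes Cyb5a (-0.03) and Cyb5b (0.06), the reductase gene Cyb5r3 (-0.05) and Pgrmc1 (0.01), a membrane partner of P450 enzymes, stayed within 0.06 of 0. Erg28, a scaffold of the sterol enzymes, had 0.12 (95% interval -0.05 to 0.29).

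**Figure D4:**
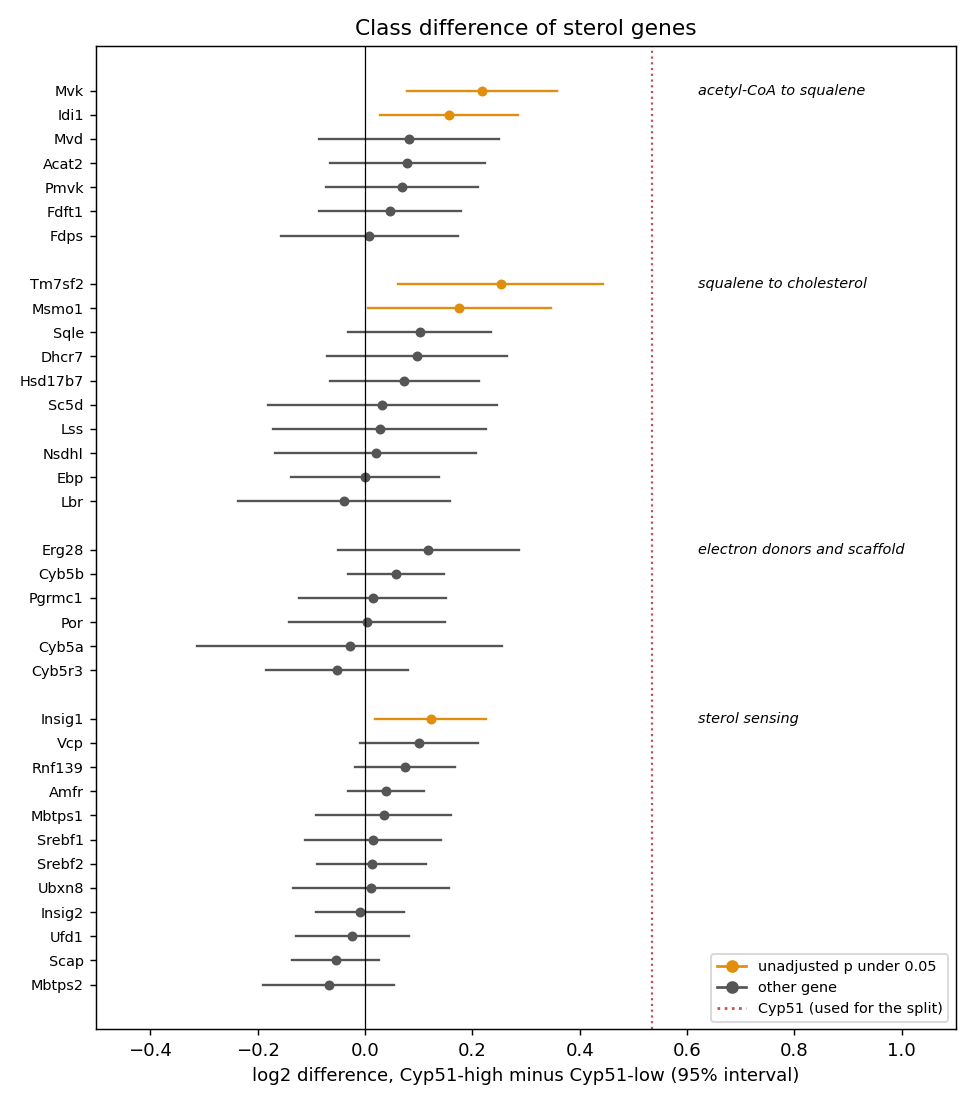
Log2 difference, Cyp51-high minus Cyp51-low, with its 95% interval (horizontal axis) for genes of cholesterol synthesis, for proteins that serve its enzymes and for sterol sensing (rows, grouped by role). The 5 genes in orange (unadjusted p under 0.05) all lie to the right of 0, and every interval ends left of the dotted line at the Cyp51 difference of 0.54.

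Among 12 genes of sterol sensing, Insig1 was the only one at an unadjusted p under 0.05. Insig1, which retains the SREBP escort in the endoplasmic reticulum and lies on chromosome 5, had 3382, 3857.5 and 4202 scaled counts in Cyp51-high and 2966, 3546 and 3940 in Cyp51-low strains (difference 0.12, p = 0.0222). The transcription factor genes Srebf2 (0.01) and Srebf1 (0.02) were near 0. Of 14 uptake and transport genes 1 passed the same limit, the lipoprotein receptor gene Scarb1 (0.19, p = 0.0196).

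Of 12 genes of sterol efflux and LXR response none passed, 3 were higher and 9 lower, and the median difference was -0.05. In the oxysterol list of 5 genes, Cyp27a1, the mitochondrial sterol hydroxylase, had -0.34 (p = 0.0295), the 1 gene at that limit. None of 11 genes of the isoprenoid branch and none of 15 fatty acid genes of the SREBP programme passed, and the fatty acid genes had a median of 0.02.

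The count of 4 sterol genes moved with the fit. With scores of skeletal muscle, spinal cord, erythroid and Schwann genes as covariates it was 9 of the 23 synthesis and partner genes, in TyJ strains alone it was 2, and in RwwJ strains alone it was 0. No sterol gene was called in any of these fits. The difference of the class effect between RwwJ and TyJ strains was not called for any gene (0 of 16151, 0.0%, and 330, or 2.04%, at an unadjusted p under 0.05, limma).

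**Figure D5:**
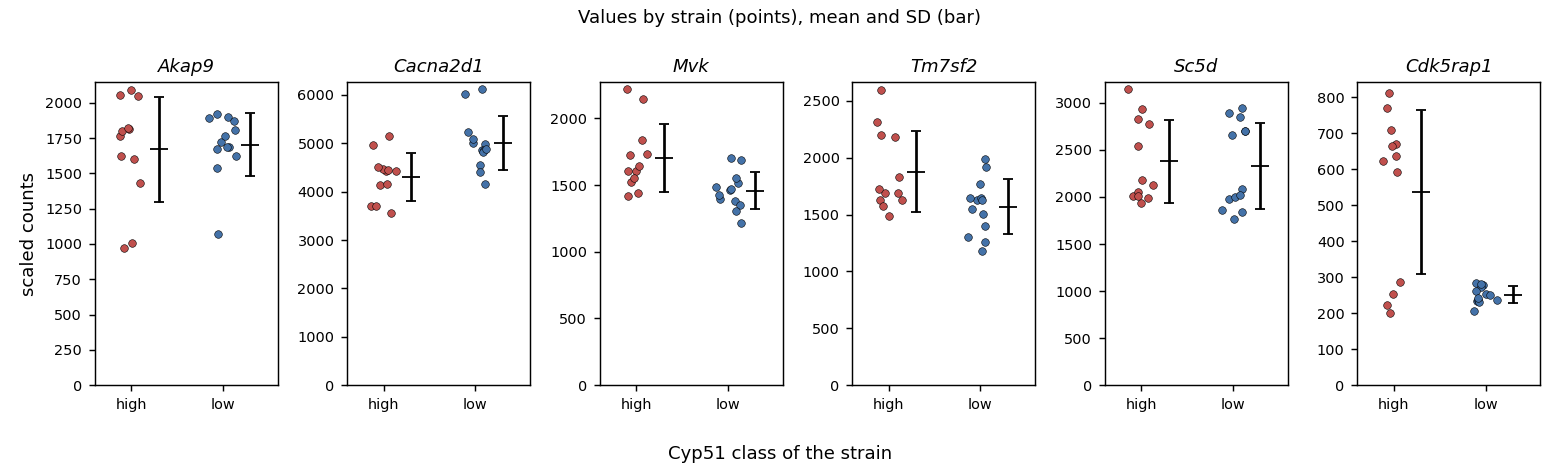
Scaled counts (vertical axes, from 0) in each strain for 6 genes, Cyp51-high strains in red on the left and Cyp51-low strains in blue on the right of each panel, with bars for the mean and SD. The classes overlap in each panel, and in Cdk5rap1 8 of the 12 high strains lie at 591 or more while every low strain lies at 285 or less.

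Variation within the classes, which the split did not use, was examined next. The slope of each gene on log2 Cyp51 within its class was called for 0 of 16151 genes (0.0%, limma), and the lowest adjusted p was 0.59. Of all slopes, 730 had an unadjusted p under 0.05 (4.52%), 241 with a positive slope (1.49%) and 489 with a negative slope (3.03%). Of the 17 other cholesterol synthesis genes 15 had a positive slope, where 8123 of all 16151 genes did. Their median slope was 0.43, against 0.0037 for all genes. Positive slopes were not particular to sterol genes. They were found in 9 of 10 neuronal markers (median 0.40) and 8 of 8 skeletal muscle markers (median 2.81). A slope of 1 would mean that a gene changed in proportion to Cyp51.

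None of the 4 genes above was among the synthesis genes with an unadjusted p under 0.05 for the slope. Those were Sqle (0.60, p = 0.0396) and Nsdhl (0.82, p = 0.0445) with positive slopes, and Lbr (-0.97, p = 0.0235) with a negative one. Mvk, which had the lowest p between the classes, had a slope of 0.09. The other 3 of the 4, Tm7sf2 (0.67), Idi1 (0.53) and Msmo1 (0.46), had slopes above the median of 0.43. Fatty acid genes had a positive slope in 14 of 15, with the synthase gene Fasn at 0.73 (p = 0.0423). Cyp27a1 had -1.60 (p = 0.0143). In the endothelial marker list 0 of 6 slopes were positive, with Pecam1 at -2.10 and Flt1 at -1.56. The fibroblast list had 0 of 7 positive (median -0.63) and the macrophage list 1 of 7 (median -0.93). These slopes rest on the narrow range within a class, and without BXD21, BXD36 and BXD40 the count at an unadjusted p under 0.05 was 1780 genes.

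The lowest p-values of the genome lay on chromosome 2, which was singled out after its values were seen. Cdk5rap1, an enzyme that modifies mitochondrial transfer RNAs, had in the Cyp51-high class 201 scaled counts in BXD15, 224 in BXD34, 254 in BXD40, 286 in BXD21, 591 in BXD44, 624 in BXD28, 637 in BXD73, 665 in BXD55, 669 in BXD13, 708 in BXD87, 771 in BXD14 and 811 in BXD77. In the Cyp51-low class its lowest, median and highest values were 207, 250 and 285. The low strains were all at 1 level, and the high strains were divided, 4 near that level and 8 well above it. The log2 difference was 0.94 ± 0.20 (SE; 95% interval 0.52 to 1.35, p = 8.69e-05, adjusted p = 0.999).

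Within the endings, the Cdk5rap1 difference was 0.58 in TyJ strains (adjusted p = 0.819) and 1.45 in RwwJ strains, where limma called it (adjusted p = 0.00119). In RwwJ strains all 5 Cyp51-high values, 591 to 811, lay above the 4 Cyp51-low values, 236 to 277. Weighting the libraries gave 1.12 and also a call (adjusted p = 0.0233). Over all fits the adjusted p of this gene ran from 0.00119 to 0.9995.

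The next 3 genes by p were close to it in gene order, at places 1004, 1011 and 1021 of 1327 on chromosome 2, with Cdk5rap1 at 1022. Pdrg1, a prefoldin-like protein, had 2297, 2846 and 3110 scaled counts in Cyp51-high and 1900, 2326 and 2845 in Cyp51-low strains (difference 0.26, p = 0.000514). Pofut1, which adds fucose to Notch receptors, had 775, 1033.5 and 1116 in Cyp51-high and 736, 786 and 1024 in Cyp51-low strains (0.26, p = 0.000697). Bpifb5, a gene of few reads, lay the other way, with 3, 9 and 28 in Cyp51-high and 6, 25 and 41 in Cyp51-low strains (-1.14, p = 0.00055). The bin that holds them, from Polr3f to Rbm39, had 18 of 132 genes (13.6%) at an unadjusted p under 0.05, the largest share of the 200 bins, and the next bin had 10.6%.

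Outside chromosome 2, Gla, the lysosomal alpha-galactosidase on the X chromosome, had 842, 870.5 and 972 scaled counts in Cyp51-high and 660, 794 and 915 in Cyp51-low strains. Each of the 12 high strains lay above the low mean (difference 0.18, p = 0.00106). Gm12632 had 1.204 (p = 0.000965) and is a gene of few reads. It had 6, 13.5 and 39 scaled counts in Cyp51-high and 1, 7 and 13 in Cyp51-low strains. Its means were 18.4 and 6.85, so it passed the filter on low values only through the Cyp51-high class. Among TyJ strains its values were 6 to 39 in high and 1 to 11 in low strains. Among RwwJ strains they were 7 to 13 and 6 to 13, so the classes overlapped there. On the lower side were Atxn7 (-0.39), Gm8113 (-0.59), Cys1 (-0.70) and Rnf114 (-0.17). By the separation measure, Cyp51 at 2.33 was followed by Cdk5rap1 at 1.05, Gla at 0.836, Psmd1 at 0.802, Pdrg1 at 0.794, Ccdc127 at 0.790, Dph6 at 0.789, Rnf114 at 0.778 and Bpifb5 at 0.773.

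Of the markers of muscle, spinal cord and other tissues, none was called. Over all genes tested, 2.25% were higher in Cyp51-high strains at an unadjusted p under 0.05 (limma), and 1.74% were lower. In bulk ganglia, fewer cells of a type and less RNA per cell cannot be told apart. All 8 skeletal muscle markers were lower in Cyp51-high strains, with 2 at an unadjusted p under 0.05 (Myh1 -2.19, p = 0.0137, and Mylpf -1.40, p = 0.0408) and a median difference of -1.33. Their summed level was 399, 2882 and 17931 scaled counts (lowest, median and highest) in Cyp51-high and 329, 6712 and 43469 in Cyp51-low strains. The sums spanned a wide range in both classes.

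Of 9 spinal cord markers 8 were lower, none passed the unadjusted limit, and the median was -1.64. Their sums were 513, 625.5 and 4725 scaled counts in Cyp51-high and 455, 1520 and 12657 in Cyp51-low strains, and 4 of the markers (Slc32a1, Olig1, Olig2 and Opalin) were at 0 somewhere, in 11 strains in all. Of 6 satellite glia markers 4 were lower and 2 higher. Glul (-0.31, p = 0.0152) and Cdh19 (-0.33, p = 0.017) were at that limit, while Fabp7, with the largest difference of the list, was at 0.51 and Ptn at 0.16. Of 10 neuronal markers 8 were higher and 2 lower, with a median difference of 0.07. Prph (0.15, p = 0.0434) and Nefl (0.17, p = 0.0445) were at that limit, while Elavl4 was at -0.10 and Stmn2 at -0.05. The neuronal sums were 453377, 522704 and 636686 in Cyp51-high and 399722, 489205 and 584001 in Cyp51-low strains, at a high level in every strain.

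Markers of Schwann cells, fibroblasts, macrophages, endothelium, adipose and erythroid cells had none at the unadjusted limit. In Cyp51-high strains 6 of 6 adipose (median -0.35), 5 of 6 erythroid (median -0.26) and 6 of 7 macrophage markers (median -0.08) were lower. So were 7 of 12 Schwann (median -0.09), 4 of 7 fibroblast (median -0.02) and 1 of 6 endothelial markers (median 0.05). Summed Schwann markers were 115845, 166454 and 230237 scaled counts in Cyp51-high and 101843, 189730 and 236585 in Cyp51-low strains. The part of these tissue differences in the sterol and neighbour values was not tested, apart from the fit with the 4 tissue scores above.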

How the data were processed

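Dorsal root ganglia of 25 BXD strains were profiled by RNA sequencing, 1 library per strain. The deposited values are a normalized score, whole numbers that the authors scaled and rounded, called scaled counts. From the values, the third quartile was 1478 to 1478.25 in every library. CASAVA 1.8.0, TopHat2 2.0.9, HTSeq and the builds NCBIM37 and mm9 are named, per the submitters' processing notes. Neither the scaling tool nor a low-value filter is stated in the sources used here. Scaled counts are not raw counts, so no count model was fitted.

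Of 16220 genes, 15697 were matched to GENCODE M21 (GRCm38), used for names and gene order only, and 523 were not. Genes with a mean of at least 10 were tested (68 left out) on log2(value + 1) with limma 3.58.1 (R 4.3.3, trended prior), two-sided, with Benjamini-Hochberg adjustment over all 16151 genes and a threshold of 0.05. A slope on log2 Cyp51 centred within its class, and a class by ending interaction, used the same model. Transcript similarity used BLAST+ 2.17.0. The model was tested on simulated data. Named genes were the cholesterol synthesis lists, best-known members of other sterol lists, the 10 nearest tested genes on each side, the lowest p-values and the 8 genes with the largest separation. Some genes of these lists and of the neighbourhood stayed in the fit but are not reported here, and counts of lists and neighbours leave them out. The members, lists and tests were chosen with earlier results of these data known. Classes came from a measured value, so every comparison is an association with it. Alternatives were another pseudocount, filters, rescaling, covariates, library weights, single endings and left-out strains, of which BXD21, BXD36, BXD40 and BXD48 were picked from those earlier results. The number of strains limits the precision, and counting error is not separately given.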

Additional observations from a re-analysis of the deposited data

How the results depend on the processing

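No paired analysis was possible because each strain had 1 library and a strain's replicate number, given in accession order, only names it. No gene was called under another pseudocount, a filter at 50, no filter, median-of-ratios rescaling, either covariate set, TyJ strains alone, the left-out strains or Cyp51 as a continuous measure. Library weights and RwwJ strains alone gave 1 called gene each, Cdk5rap1. At an unadjusted p under 0.05, weights gave 1510 genes and RwwJ strains alone 307, against 645, and the other fits gave 486 to 949. Neighbours at that limit numbered 9 with weights, 2 with the tissue scores, 2 in RwwJ strains alone and 3 without BXD21, BXD36 and BXD40, against 5. Sterol genes numbered 9 with the tissue scores, 2 in TyJ and 0 in RwwJ strains alone, against 4. Slopes without those 3 strains gave 1780 genes, against 730. The causes were not tested. Of 61 named differences, none of them called in the main fit, 43 values over all alternatives had the opposite sign. With library weights Fdps was -0.028, Nsdhl -0.022, Por -0.056, Pgrmc1 -0.044, Krit1 0.033, Akap9 0.041, Mterf1b -0.0068 and Srebf1 -0.033. In TyJ strains alone Fdps was -0.021 and Por -0.044. Without BXD48 Fdps was -0.0034 and Ebp 0.00069. Without BXD21, BXD36 and BXD40 Fdps was -0.047, Nsdhl -0.029, Pgrmc1 -0.0095, Krit1 0.019, Akap9 0.033, Mterf1b -0.084, Fzd1 0.026, Srebf2 -0.0028 and Srebf1 -0.026. In RwwJ strains alone Lss was -0.043, Lbr 0.0050, Ebp 0.057, Sc5d -0.22, Dhcr7 -0.028, Cyb5a 0.044, Cyb5b -0.045, Cyb5r3 0.041, Pgrmc1 -0.034, Cdk6 0.33, Akap9 0.012, Mterf1b -0.14, Cdk14 -0.0072 and Srebf1 -0.044. After median-of-ratios rescaling Ebp was 0.00053. With ending as a covariate Ebp was 0.0067, Por -0.0056 and Cyb5a 0.011. With the tissue scores Ebp was 0.092, Cyb5a 0.092, Fam133b 0.010 and Rbm48 0.022. Gene by gene, the 95% intervals bound what 12 and 13 strains can show, and no depth limit is known beyond the estimated reads.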
